A study of Homo sapiens with 6 samples.

Results

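The 51 genes described here encode proteins that build and run mitosis: cyclins and mitotic kinases, spindle checkpoint proteins, motor proteins, kinetochore subunits, cytokinesis proteins, condensin, and the transcription factors FOXM1 and MYBL2. They were chosen by symbol and not by a rule on their measured values, but with earlier results of these data known. All 51 were found among the 63241 gene identifiers of the count files and passed the filter on low counts that left 15295 genes to be tested. RNA from MDA-MB-231 cells, a human triple-negative breast cancer line, was sequenced after 24 hours in 0.1% DMSO, the vehicle, or in 5 μM NCD (nitidine chloride, a plant alkaloid). Each group has 3 libraries (DMSO replicates 1 to 3 and NCD replicates 1 to 3) of 1 unmodified cell line at 1 dose and 1 time, and nothing states that the replicates were separate cultures, so the p-values measure the spread between these libraries, which may be technical. The free-text notes of NCD replicates 2 and 3 carry other cell line numbers, while the cell line field of all 6 libraries is MDA-MB-231.

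A dividing cell enters mitosis when CDK1 bound to a B-type cyclin is activated, and PLK1 and the Aurora kinases then drive spindle assembly. Kinetochores, built on CENPA-containing chromatin, hold the chromosomes to spindle microtubules, and the checkpoint proteins keep the anaphase-promoting complex in check until every chromosome is attached. Most of these transcripts are made in G2 and mitosis, under the control of the MuvB complex with MYBL2 and FOXM1, so in a bulk culture fewer cells in those phases and less RNA per such cell cannot be told apart.

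NCD treatment left this group divided. Of the 51 genes, 10 fell past the call rule of a log2 fold change beyond 1 and an adjusted p under 0.05 (the quasi-likelihood test of edgeR, Benjamini-Hochberg adjusted over all tested genes), which is 19.6% of them, beside 17.5% of all tested genes. These 10 were MELK, BUB1B, KIF4A, KIF18A, CENPE, SPC25, DLGAP5, ASPM, ANLN and NCAPG. None rose past that rule, beside 13.5% of all tested genes, and none did so under any alternative run. At any fold size, 26 of the 51 fell (51%), beside 34.1% of all tested genes, and 7 rose (13.7%), beside 35.3%. The 7 that rose were CDC25B, NEK2, KIF20A, ESPL1, CENPA, FOXM1 and MYBL2. All 3 NCD libraries lay below all 3 DMSO libraries in 26 genes (51%), beside 35.3% of all tested genes, and above them in 10 (19.6%), beside 37.2%. The median log2 fold change of the 51 was -0.28, between -2.40 for CENPE and 0.76 for CDC25B, against 0.04 for all tested genes. The split between small rises and small falls rested on the scaling. Raw library totals in place of TMM (trimmed mean of M-values) scaling moved the median of all genes by 0.20. With these totals 17 of the 51 fell and 16 rose at any fold size, and 8 still fell past the call rule. The median of the 51 was then -0.09, against 0.23 for all tested genes, so it lay below that of all tested genes under both scalings.

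**Figure D1:**
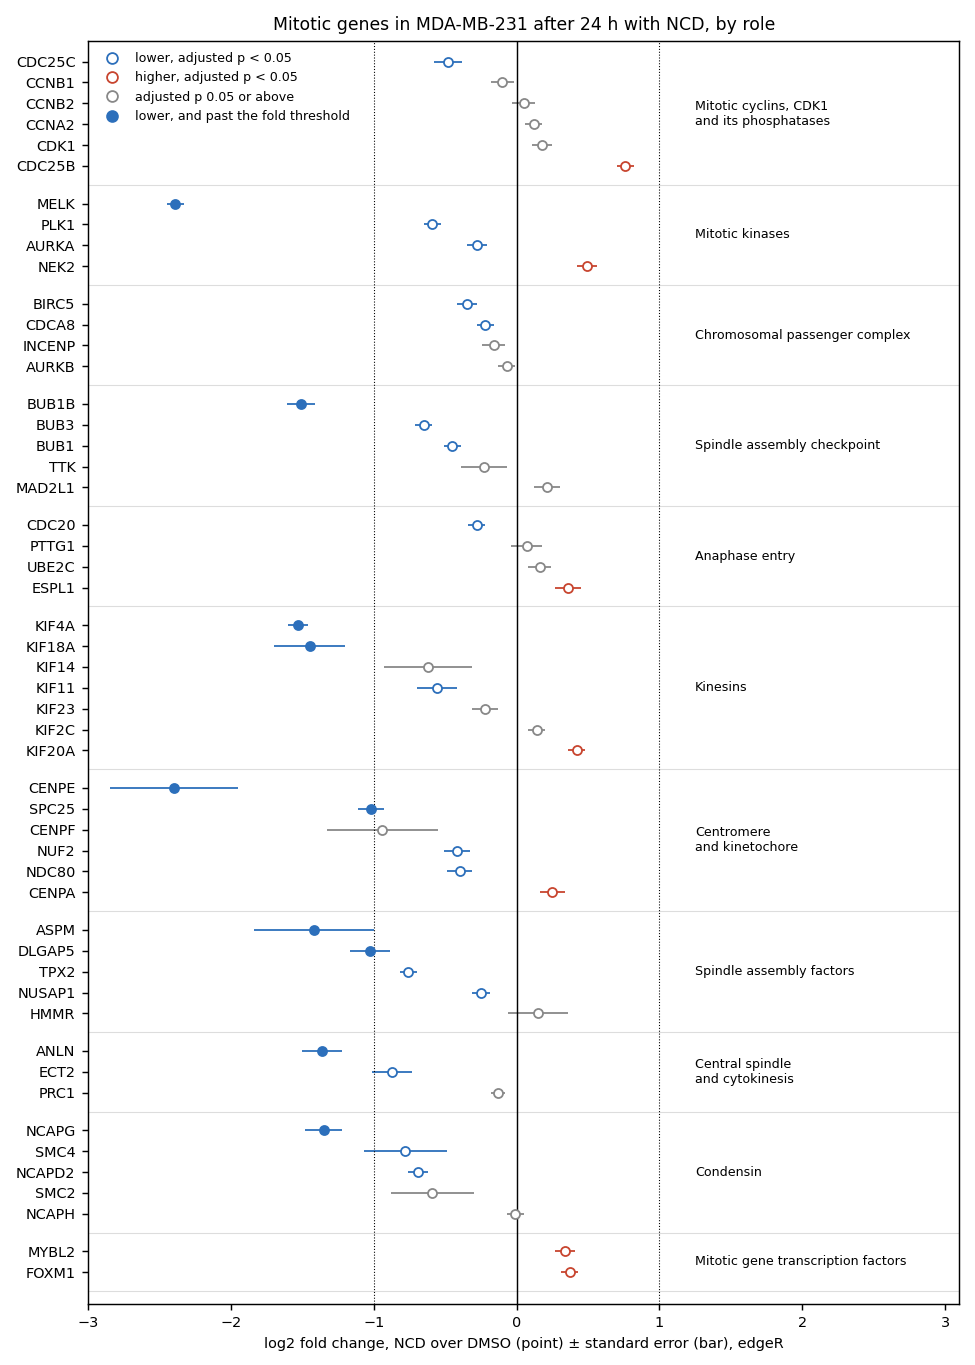
Log2 fold change (NCD over DMSO, x axis) of each of the 51 genes, arranged by role on the y axis, with the standard error of the edgeR fit as the bar filled points past the fold threshold, blue for lower, red for higher and grey for not called, and dotted lines at a log2 fold change of -1 and 1. The values run from -2.40 for CENPE to 0.76 for CDC25B, and genes of one role lie on both sides of 0 in 7 of the 11 roles.

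In all 6 libraries every one of the 51 genes was counted at 88 reads or more, and the highest count was 9226. Library totals were 18223594 to 19410833 counts in DMSO and 18232169 to 21629653 in NCD. The line's own markers were present, with VIM at 2490.7 to 3155.9 CPM (counts scaled to a common TMM-scaled library size, as edgeR computes them). CD44 ranged over 260.7 to 997.6 CPM and EGFR over 26.1 to 183.4 in the 6 libraries. CAV1 was at 390.4 to 747.9 CPM and S100A4 lower, at 15 to 19.6. These 5 markers summed to 4812.0 to 5050.6 CPM in DMSO and 3221.5 to 3488.2 in NCD, most of it VIM. The oestrogen and progesterone receptor genes ESR1 and PGR had at most 7 and 3 counts in any library, while ERBB2 was at 35.2 to 62.6 CPM and the luminal gene GATA3 at 5.91 to 7.35. Of the markers of other cells, those of fibroblasts summed to 4.13 to 5.32 CPM in DMSO and 18.6 to 19.9 in NCD, from COL1A1 and PDGFRB with COL1A2 at 0, and the part of this in the results was not tested. The 1 leukocyte marker over 1 CPM was CD68, at 81.1 to 95.3, and the 1 endothelial marker was KDR, at 8.17 to 15.1. The share of counts from mitochondrial genes was 6.39 to 6.74% in DMSO and 4.9 to 4.97% in NCD. DMSO replicate 2 and NCD replicate 3 stood apart within their groups: genes in the top decile by transcript length lay a median of 0.136 and 0.144 above their group mean on the log2 scale in these 2 libraries, and between -0.095 and -0.036 in the other 4.

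That difference reached several of the mitotic genes. CENPE, ASPM, CENPF, KIF14, SMC2 and SMC4 were each at least 1.5 times higher in NCD replicate 3 than in the mean of NCD replicates 1 and 2, and at least 1.5 times higher in DMSO replicate 2 than in DMSO replicate 1. TTK, KIF18A and HMMR met the first condition only. For CENPE, a kinesin of 8.61 kb transcript length, NCD replicate 3 was 3.14 times the other pair, while the median of this ratio was 0.937 over the 24 genes with transcripts of at most 3 kb and 2.03 over the 10 above 5 kb. Over the 51 genes the ratio followed transcript length with a Spearman rho of 0.61 and transcript GC content with a rho of -0.74. It followed the length of the gene on the chromosome with a rho of 0.62. For DMSO replicate 2 over DMSO replicate 1 these were 0.70, -0.48 and 0.56. All are descriptions over genes that share the same libraries. Without NCD replicate 3, 15 of the 51 fell past the call rule, the 5 gained being CENPF, ECT2, KIF14, SMC2 and SMC4. With the long-transcript deviation of each library as a covariate, an alternative chosen after the data were seen, 11 fell past it.

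**Figure D2:**
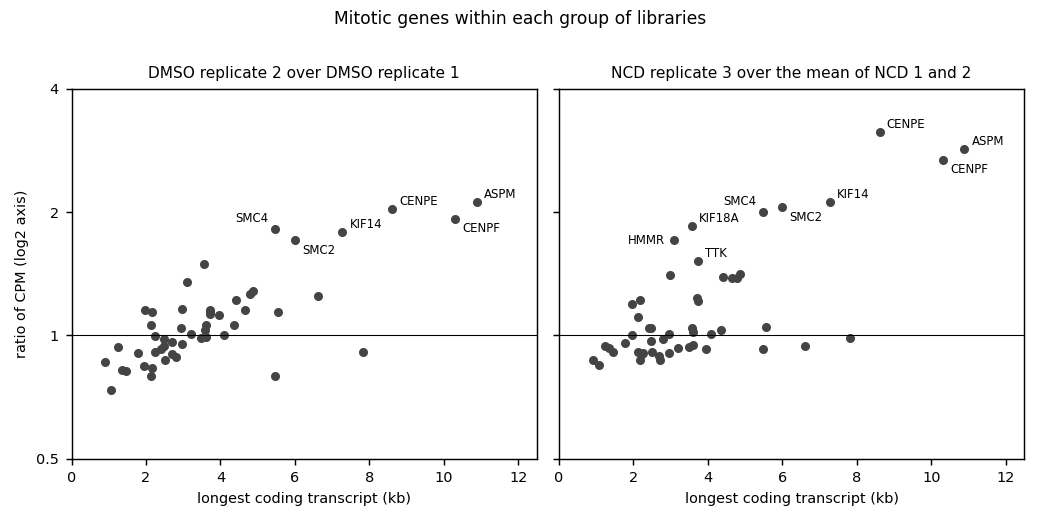
Each point is 1 of the 51 genes, with the length of its longest coding transcript in kb on the x axis and, on the logarithmic y axis, the CPM of 1 library over other libraries of its own group (NCD replicate 3 over the mean of NCD replicates 1 and 2, and DMSO replicate 2 over DMSO replicate 1). Both ratios lie near 1 for short transcripts, with medians of 0.937 and 0.918 up to 3 kb, and rise to medians of 2.03 and 1.75 above 5 kb.

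Promoters of mitotic genes are known for 2 short elements, the CHR (cell cycle genes homology region, searched here as TTTGAA or TTTAAA) and CCAAT boxes, to which the MuvB complex and NF-Y bind. Both were searched on both strands in the RefSeq windows of 250 bases before to 50 bases after the transcription start (GRCh38.p14), which matched 44 of the 51 genes. A CHR match was present in 38 of the 44 (86.4%), beside 27.9% of the 27305 genes with a window, and a CCAAT match in 33 (75%), beside 39.7%. At least 2 CCAAT matches were found in 45.5% of the 44 against 12.9% of all genes with a window. A CHR match was present in 9 of 10 genes that fell past the call rule, in 4 of 6 that rose at any fold size and in 14 of 16 that were not called. A CCAAT match was present in 5 of the 10 that fell past the rule (50%), in 5 of the 6 that rose (83.3%) and in 14 of the 16 not called (87.5%). By length on the chromosome, a CCAAT match was present in all 13 genes up to 20 kb (100%) and in 8 of 13 over 60 kb (61.5%). Response and length cannot be told apart in these shares. No test was made of these shares. A match is a description of letters and not evidence of binding.

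The following stretches are the last 120 bases before the RefSeq start, written 5′ to 3′ on the plus strand, which is the coding strand of each gene, with CHR and CCAAT matches of either orientation in capitals. They are shown because the first 5 genes were little changed or moved by less than 2-fold, and the last 5 fell past the call rule. The bounds of GENCODE 29 begin before the RefSeq start in all 10 genes, so each stretch runs at least in part inside them, and those of CCNB1, KIF20A and PLK1 lie wholly inside.
CCNB1 (chr5:69167030-69167149): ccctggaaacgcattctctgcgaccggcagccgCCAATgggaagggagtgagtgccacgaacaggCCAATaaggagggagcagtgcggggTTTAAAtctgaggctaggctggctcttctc
CDC20 (chr1:43358861-43358980): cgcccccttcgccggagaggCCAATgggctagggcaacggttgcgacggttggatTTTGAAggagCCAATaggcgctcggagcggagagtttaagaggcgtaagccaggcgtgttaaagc
CCNB2 (chr15:59105026-59105145): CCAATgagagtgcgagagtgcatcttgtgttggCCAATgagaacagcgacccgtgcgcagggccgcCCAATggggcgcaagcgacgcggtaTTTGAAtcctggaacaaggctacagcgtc
KIF20A (chr5:138178992-138179111): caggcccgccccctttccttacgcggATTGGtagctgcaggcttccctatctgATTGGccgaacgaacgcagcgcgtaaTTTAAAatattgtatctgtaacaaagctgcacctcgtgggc
PLK1 (chr16:23678769-23678888): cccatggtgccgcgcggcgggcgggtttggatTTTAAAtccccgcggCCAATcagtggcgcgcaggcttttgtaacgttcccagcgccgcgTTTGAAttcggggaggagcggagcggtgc
MELK (chr9:36572775-36572894): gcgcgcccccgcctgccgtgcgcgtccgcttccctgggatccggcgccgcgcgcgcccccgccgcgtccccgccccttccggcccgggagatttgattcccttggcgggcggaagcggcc
KIF4A (chrX:70289984-70290103): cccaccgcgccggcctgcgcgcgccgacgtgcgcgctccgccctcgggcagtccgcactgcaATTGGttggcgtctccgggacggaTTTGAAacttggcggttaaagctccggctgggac
ANLN (chr7:36389742-36389861): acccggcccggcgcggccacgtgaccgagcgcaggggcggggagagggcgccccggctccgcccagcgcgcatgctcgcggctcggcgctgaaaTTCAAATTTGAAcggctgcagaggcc
BUB1B (chr15:40160949-40161068): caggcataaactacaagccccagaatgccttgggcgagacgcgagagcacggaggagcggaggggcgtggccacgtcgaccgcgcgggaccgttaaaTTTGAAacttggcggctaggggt
NCAPG (chr4:17810859-17810978): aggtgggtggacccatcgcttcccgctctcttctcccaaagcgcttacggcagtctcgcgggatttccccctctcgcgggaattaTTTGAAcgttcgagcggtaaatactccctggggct

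In these 120 bases the first 5 genes each held at least 1 match of both elements. Of the last 5, KIF4A held both, ANLN, BUB1B and NCAPG held a CHR match without a CCAAT match, and MELK, whose fall among the 51 was exceeded only by that of CENPE, held neither. These genes were picked for their responses, so the contrast is a description of the 10 stretches. The other genes past the rule, CENPE, SPC25, KIF18A, DLGAP5 and ASPM, lie on the minus strand and are not shown. In the full windows 5 of the 10 genes past the rule held a CCAAT match.

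CDK1 and the cyclins at the core of mitotic entry were not called with TMM scaling. CCNB1, the main mitotic cyclin, measured 440.8, 367.3 and 396.2 CPM in DMSO replicates 1 to 3 and 393.4, 388.1 and 340.7 in NCD, a log2 fold change of -0.10 (SE 0.08, adjusted p = 0.309, edgeR). CDK1, its kinase partner, stood at 292.0 to 347.0 CPM in DMSO and 350.9 to 374.2 in NCD (0.18, SE 0.07, adjusted p = 0.0545, edgeR). CCNB2 was not called either, at 0.05 (SE 0.08), nor was the S and G2 phase cyclin CCNA2 at 0.12 (SE 0.06). With library totals CDK1 (0.38), CCNA2 (0.32) and CCNB2 (0.25) were called higher (adjusted p = 0.000704, 0.000512 and 0.00832, edgeR). Per kilobase of transcript, CCNB1 (185.1 CPM per kb in DMSO) and CDK1 (164.8) were among the more abundant members, next to PTTG1 (250.2) and UBE2C (247.4), while CENPE (5.04), ASPM (6.13) and ESPL1 (6.82) were the least.

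The CDC25 phosphatases, which remove the inhibitory phosphates from CDK1, moved in opposite directions. CDC25B (ENSG00000101224, GRCh38 chromosome 20, 3786772 to 3806121, plus strand) measured 84.9, 84.2 and 82.9 CPM in DMSO and 146.4, 142.5 and 136.6 in NCD. Every NCD library lay above every DMSO library, at 168.8% of the DMSO mean (log2 fold change 0.76, SE 0.06, adjusted p = 2.91e-06, edgeR), the highest of the 51. CDC25C measured 41.5, 33 and 38.3 CPM in DMSO against 28.4, 27.2 and 25.2 in NCD, which did not overlap (-0.48, SE 0.10, adjusted p = 0.002, edgeR). CDC25C overlaps FAM53C on the other strand, whose counts were several times larger, and it is not stated whether counting used strand.

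Mitotic kinases outside the CDK1 complex differed widely. MELK (ENSG00000165304, chromosome 9, 36572862 to 36677683, plus strand), a kinase of the AMPK family that is high in proliferating cells, measured 170.9, 161.4 and 163.8 CPM in DMSO and 31, 31.2 and 32.4 in NCD. The libraries within each group were nearly equal and the NCD level was 19.1% of the DMSO level (log2 fold change -2.39, SE 0.06, adjusted p = 1.29e-08, edgeR). NEK2, a centrosome-separating kinase, rose, from 55.4, 59 and 60.6 CPM to 80.6, 77.1 and 87.8 (0.49, SE 0.07, adjusted p = 0.000275, edgeR). PLK1, which acts from mitotic entry to cytokinesis, fell by less than the call rule asks, from 102.1 to 104.5 CPM in DMSO to 64.2 to 72.8 in NCD (-0.59, SE 0.06, adjusted p = 4.12e-05, edgeR). AURKA, the spindle pole kinase, fell by 0.28 on the log2 scale (SE 0.07, adjusted p = 0.00408, edgeR), which was not called with library totals (-0.08).

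The chromosomal passenger complex, in which AURKB is held at centromeres and the midzone by INCENP, BIRC5 (survivin) and CDCA8 (borealin), had no member past the call rule. BIRC5 measured 182.4, 164.2 and 175.7 CPM in DMSO and 143.6, 142.0 and 124.1 in NCD, with no overlap (-0.35, SE 0.07, adjusted p = 0.00235, edgeR). AURKB measured 99.3, 93.1 and 96.6 CPM in DMSO and 93.3, 94.1 and 88.2 in NCD, with overlapping groups (-0.07, SE 0.06, adjusted p = 0.322, edgeR). CDCA8 fell by 0.22 on the log2 scale (SE 0.06, adjusted p = 0.00683, edgeR), and INCENP was not called at -0.16 (SE 0.08). With library totals neither BIRC5 nor CDCA8 passed the adjusted p threshold (0.0539 and 0.748).

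Among the spindle checkpoint genes, BUB1B (BubR1, a subunit of the inhibitor of the anaphase-promoting complex; ENSG00000156970, chromosome 15, 40161023 to 40221136, plus strand) fell furthest. Its levels were 105.4, 120 and 102.6 CPM in DMSO and 37.1, 34.8 and 43.3 in NCD. The groups lay far apart, with NCD at 35.1% of DMSO (-1.51, SE 0.10, adjusted p = 1.37e-06, edgeR). BUB3, its binding partner, fell from 480.6 to 526.7 CPM to 318.0 to 327.3 (-0.65, SE 0.06, adjusted p = 1.06e-05, edgeR), and the kinase BUB1 fell from 198.1 to 217.6 CPM to 150.1 to 157.6 (-0.45, SE 0.06, adjusted p = 0.000119, edgeR). MAD2L1, which inhibits CDC20, was at 210.8, 167.7 and 190.0 CPM in DMSO and 222.5, 226.9 and 207.6 in NCD, with 1 NCD library below the highest DMSO library (0.21, SE 0.09, adjusted p = 0.0534, edgeR), and it was called higher with library totals (0.41, adjusted p = 0.00101, edgeR) and without NCD replicate 3 (0.23, adjusted p = 0.0447, edgeR). The checkpoint kinase TTK (MPS1) was not called at -0.23 (SE 0.16), with NCD replicate 3 at 71.1 CPM above every DMSO library, and without that library it fell by 0.48 on the log2 scale (adjusted p = 0.00154, edgeR).

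Genes of anaphase entry changed by less than 2-fold, and the calls of all but ESPL1 depended on the scaling. CDC20, the activator of the anaphase-promoting complex, measured 154.7, 140.0 and 148.5 CPM in DMSO and 123.4, 122.6 and 118.1 in NCD, 82.1% of the DMSO level with no overlap (-0.28, SE 0.06, adjusted p = 0.00224, edgeR), a fall that was lost with library totals (adjusted p = 0.156). ESPL1 (separase), which cleaves cohesin, rose from 40.6, 50.9 and 44.1 CPM to 57.5, 60.9 and 55.9 (0.36, SE 0.09, adjusted p = 0.00645, edgeR). It was also called higher with library totals (0.56, adjusted p = 0.000976, edgeR). PTTG1 (securin, the separase inhibitor) and UBE2C (the ubiquitin-conjugating enzyme of the anaphase-promoting complex) were not called, at 0.07 (SE 0.11) and 0.16 (SE 0.08), but with library totals both were called higher (0.26 and 0.36, adjusted p = 0.043 and 0.00139, edgeR).

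**Figure D3:**
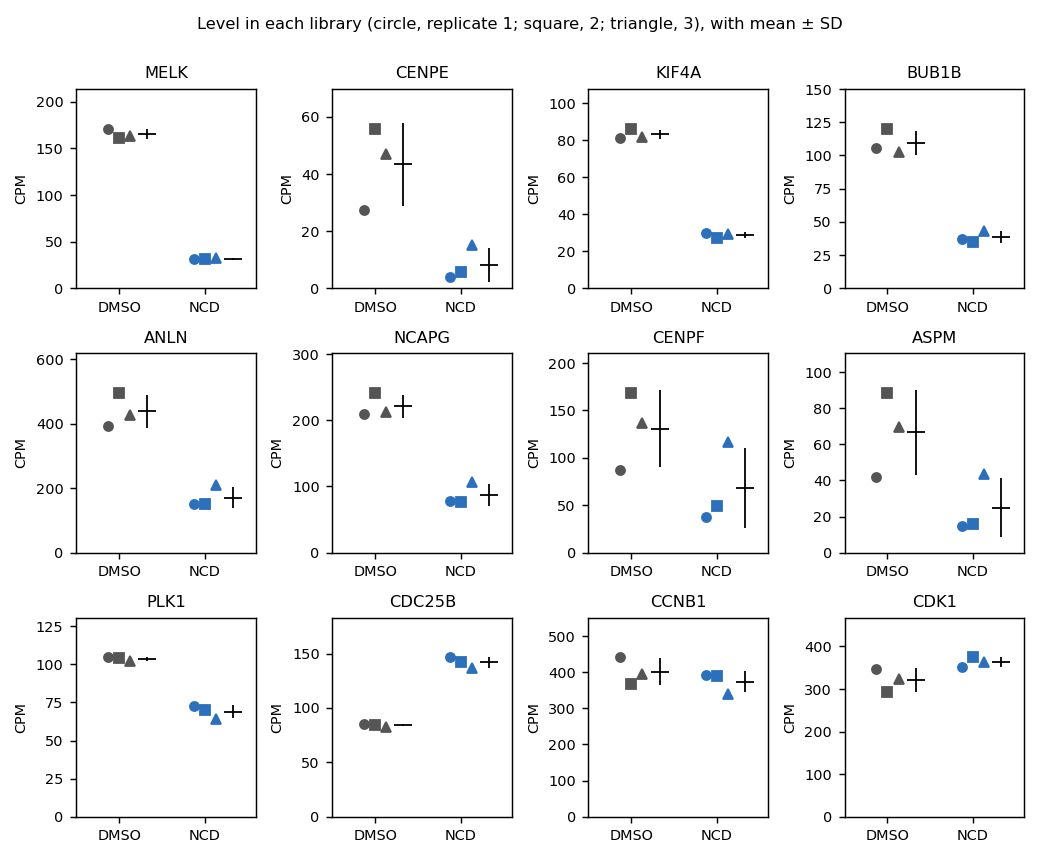
CPM in each of the 6 libraries for selected genes, with grey symbols for DMSO and blue for NCD, a cross for the group mean with its SD (n = 3), and a vertical axis starting at 0 in each panel. MELK falls from 165.4 to 31.5 CPM with little spread, whereas CENPE, from 43.4 to 8.22, and ASPM, from 66.7 to 24.9, have DMSO replicate 2 and NCD replicate 3 highest in their groups.

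The 7 mitotic kinesins, microtubule motors of the spindle and midzone, included members that fell by nearly 3-fold and a member that rose. KIF4A, a chromosome-bound motor (ENSG00000090889, chromosome X, 70290090 to 70420832, plus strand), measured 81.2, 86.1 and 82 CPM in DMSO and 29.9, 26.9 and 29.3 in NCD, 34.5% of DMSO with little spread (-1.53, SE 0.07, adjusted p = 1.73e-07, edgeR). KIF18A, which damps chromosome oscillations (ENSG00000121621, chromosome 11, 28020620 to 28108308, minus strand), measured 38.9, 58.1 and 48.8 CPM in DMSO and 12.9, 14.8 and 25.6 in NCD, also without overlap (-1.45, SE 0.25, adjusted p = 0.000646, edgeR). KIF20A (MKLP2), which brings the passenger complex to the midzone, rose instead, from 147.2, 149.4 and 145.2 CPM to 205.5, 197.1 and 187.1 (0.42, SE 0.06, adjusted p = 0.000163, edgeR). KIF20A and KIF4A overlap counted genes on the opposite strand, as do KIF18A, CCNA2, ANLN, SMC4, NCAPD2 and NCAPG.

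The remaining kinesins moved less or more variably. KIF11 (Eg5), which pushes spindle poles apart, fell from 139.6 to 179.3 CPM to 91.4 to 130.5 (-0.56, SE 0.14, adjusted p = 0.00707, edgeR), though with library totals it was not called (adjusted p = 0.0706). KIF2C (MCAK), a microtubule depolymeriser, was at 0.14 (SE 0.06), and KIF23 (MKLP1), of the central spindle, at -0.22 (SE 0.09), neither called. Without NCD replicate 3 KIF23 was called at -0.35 (adjusted p = 0.00136, edgeR) and KIF2C at 0.17 (adjusted p = 0.0255, edgeR), and library totals also called KIF2C (0.34, adjusted p = 0.000418, edgeR). KIF14 measured 38.4, 69 and 55.8 CPM in DMSO and 25, 26.3 and 54.5 in NCD, so the groups overlapped through NCD replicate 3 (-0.62, SE 0.31, adjusted p = 0.0988, edgeR), and without that library the log2 fold change was -1.10 (adjusted p = 0.000903, edgeR).

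Centromere and kinetochore genes held the deepest fall of the 51. CENPE, the kinetochore motor that brings chromosomes to the spindle equator (ENSG00000138778, chromosome 4, 103105806 to 103198409, minus strand), measured 27.4, 55.8 and 47.1 CPM in DMSO and 3.85, 5.74 and 15.1 in NCD. The groups did not overlap and NCD was at 18.9% of DMSO, but the spread was wide (-2.40, SE 0.45, adjusted p = 0.0011, edgeR), and leaving out 1 library at a time gave -3.21 to -2.08, the lowest without NCD replicate 3. SPC25, a subunit of the NDC80 complex that grips microtubules (ENSG00000152253, chromosome 2, 168834132 to 168913371, minus strand), measured 66.9, 55.1 and 60.4 CPM in DMSO and 30.7, 30.5 and 28.5 in NCD, 49.2% of DMSO (-1.02, SE 0.09, adjusted p = 7.21e-06, edgeR). It stood just inside the fold threshold and missed it at -0.98 without DMSO replicate 1 and at -0.82 with library totals.

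The other kinetochore genes fell by less or were not called. NDC80 and NUF2, the partners of SPC25, fell by 0.40 and 0.42 on the log2 scale (SE 0.09 each, adjusted p = 0.00416 and 0.00262, edgeR), and neither passed with library totals. CENPA, the histone H3 variant that marks centromeres, measured 44.3, 36.2 and 39.1 CPM in DMSO and 49.9, 47.5 and 44.4 in NCD, with every NCD library above every DMSO library by a small margin (0.25, SE 0.09, adjusted p = 0.0364, edgeR). This call was lost by DESeq2 and with relative log expression size factors (0.23 in both), and when DMSO replicate 2 (0.17) or 3 (0.20), or NCD replicate 1 (0.18) or 2 (0.25), was left out. CENPA also overlaps SLC35F6 on the same strand, whose highest count, 1367, was 213.9% of the lowest CENPA count. Whether reads were shared between them was not tested. CENPF, a very large kinetochore protein, measured 87.4, 168.2 and 136.3 CPM in DMSO and 37.9, 49.4 and 116.8 in NCD, just outside the call rule (-0.94, SE 0.39, adjusted p = 0.0571, edgeR), and reached -1.60 without NCD replicate 3 (adjusted p = 0.000246, edgeR).

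**Figure D4:**
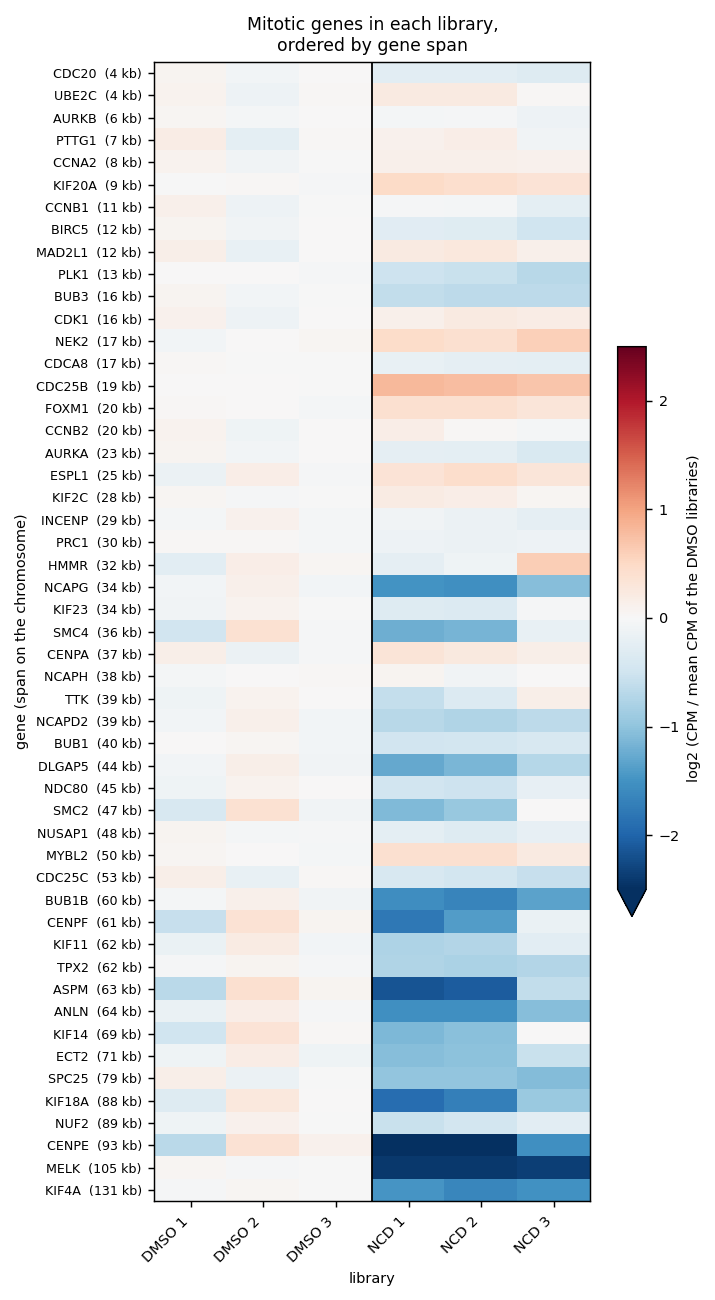
Heat map of the 51 genes (rows, ordered by genomic span, shortest at the top) in the 6 libraries (columns), coloured by the log2 ratio of CPM to the mean of the 3 DMSO libraries, with values under -2.5 given the end colour. Deep blue, for lower levels, lies mostly at the bottom among the longer genes. The MELK, BUB1B and KIF4A rows are even across the 3 NCD libraries, while the CENPE, CENPF, KIF14, ASPM, SMC2 and SMC4 rows are paler in NCD replicate 3.

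Of the spindle assembly genes, DLGAP5 and ASPM fell past the call rule. DLGAP5 (HURP), which stabilises kinetochore fibres (ENSG00000126787, chromosome 14, 55148112 to 55191678, minus strand), measured 159.0, 184.5 and 157.6 CPM in DMSO and 69.2, 75.6 and 101.3 in NCD, 49.1% of DMSO without overlap (-1.03, SE 0.14, adjusted p = 0.000128, edgeR). It missed the fold threshold at -0.96 without DMSO replicate 2, at -0.94 and -0.97 when the first or the second NCD library was dropped, and at -0.83 with library totals. ASPM, a spindle pole protein (ENSG00000066279, chromosome 1, 197084128 to 197146694, minus strand), measured 41.8, 88.5 and 69.8 CPM in DMSO and 14.9, 15.8 and 43.8 in NCD, so NCD replicate 3 overlapped DMSO replicate 1 (-1.42, SE 0.42, adjusted p = 0.0132, edgeR). Its log2 fold change was -2.13 without NCD replicate 3 and -1.18 at the other end of the range.

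TPX2, the activator of AURKA on microtubules, fell from 487.3 to 522.0 CPM to 288.6 to 300.4 (-0.76, SE 0.06, adjusted p = 3.13e-06, edgeR), an even change across libraries. NUSAP1 fell by 0.25 on the log2 scale (SE 0.06, adjusted p = 0.00376, edgeR), which library totals did not call (-0.05). HMMR, a spindle and hyaluronan-binding protein, measured 27.1, 36.6 and 33.8 CPM in DMSO and 28, 30.2 and 49.8 in NCD, with overlapping groups (0.15, SE 0.21, adjusted p = 0.554, edgeR).

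Of the 3 central spindle and cytokinesis genes, ANLN (anillin, a scaffold of the contractile ring; ENSG00000011426, chromosome 7, 36389806 to 36453791, plus strand) fell furthest. Its levels were 392.6, 494.6 and 428.3 CPM in DMSO and 151.4, 151.3 and 209.3 in NCD, 38.9% of DMSO without overlap (-1.36, SE 0.14, adjusted p = 2.23e-05, edgeR). ECT2, the exchange factor that activates RhoA at the division plane, fell from 293.1 to 358.2 CPM to 150.9 to 213.0 (-0.87, SE 0.14, adjusted p = 0.000429, edgeR). PRC1, which bundles midzone microtubules, measured 321.3, 321.2 and 305.5 CPM in DMSO and 290.7, 284.1 and 290.7 in NCD, close in level though not overlapping (-0.13, SE 0.05, adjusted p = 0.0518, edgeR).

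Condensin I, the complex that compacts mitotic chromosomes, changed unevenly over its 5 subunits. NCAPG (ENSG00000109805, chromosome 4, 17810902 to 17844862, plus strand) measured 210.1, 240.9 and 212.1 CPM in DMSO and 78.1, 76.2 and 106.4 in NCD, 39.3% of DMSO without overlap (-1.35, SE 0.13, adjusted p = 1.41e-05, edgeR). NCAPH, the subunit that bridges the complex, measured 89.7, 93.5 and 94.3 CPM in DMSO and 96.4, 87.4 and 92.5 in NCD, fully overlapping (-0.01, SE 0.06, adjusted p = 0.94, edgeR). NCAPD2 lay between them, falling from 269.7 to 308.3 CPM to 168.0 to 180.6 (-0.69, SE 0.07, adjusted p = 2.08e-05, edgeR).

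The condensin ATPases SMC2 and SMC4 varied with library. SMC4 measured 200.7, 364.6 and 274.8 CPM in DMSO and 120.1, 125.1 and 245.7 in NCD, with NCD replicate 3 above DMSO replicate 1 (-0.78, SE 0.29, adjusted p = 0.0402, edgeR). That call was lost with library totals (-0.58, adjusted p = 0.13), by DESeq2 (-0.80), and when DMSO replicate 2 (-0.55) or 3 (-0.82), or NCD replicate 1 (-0.62) or 2 (-0.61), was left out, and the value was -1.21 without NCD replicate 3. SMC2 was not called at -0.59 (SE 0.29, adjusted p = 0.0994, edgeR), and reached -1.05 without NCD replicate 3.

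The transcription factors that act on these genes both rose. FOXM1 measured 176.4, 173.8 and 167.3 CPM in DMSO and 227.7, 226.6 and 212.9 in NCD, 128.9% of DMSO (0.37, SE 0.06, adjusted p = 0.000324, edgeR). MYBL2 (B-MYB) measured 47.5, 45.9 and 44.1 CPM in DMSO and 60.4, 60.3 and 53.7 in NCD, 126.8% of DMSO (0.34, SE 0.07, adjusted p = 0.0028, edgeR). In neither gene did the groups overlap. FOXM1 overlaps counted genes on the opposite strand.

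The size of the change followed the length of the gene on the chromosome. Over the 51 genes the log2 fold change and the genomic span had a Spearman rho of -0.69, beside -0.50 over the 14690 tested genes with a span. With transcript length the rho was -0.40 over the 51 genes, beside -0.27 over the tested genes. With transcript GC content it was 0.49, beside 0.29. All are descriptions over genes of the same 6 libraries. The ratio of NCD replicate 3 to the other NCD libraries also followed span (0.62), and these relations were not separated. None of the 17 genes of up to 20 kb fell past the call rule, and their median was 0.07, whereas all tested genes of that span had a median of 0.37 and 4.91% did. Of the 14 genes over 60 kb, 8 fell past the rule (57.1%) with a median of -1.19, and among all tested genes over 60 kb 47.7% did, with a median of -0.95. The 8 were MELK, BUB1B, KIF4A, KIF18A, CENPE, SPC25, ASPM and ANLN. Only NCAPG (34.0 kb) and DLGAP5 (43.6 kb) fell past the rule with a shorter span. The class bounds were chosen after the data were seen.

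The 51 genes also sat low for their span. Set against the median of tested genes of like span (20 classes of equal size), 43 of 51 were below it (84.3%), by a median of 0.41 on the log2 scale. Among the 17 genes of up to 20 kb 14 were below, among the 14 over 60 kb 13. CENPE (-1.67), MELK (-1.65), NCAPG (-1.46), BUB1B (-1.25), ASPM (-1.17), BUB3 (-1.11), ANLN (-1.10), DLGAP5 (-1.08) and PLK1 (-1.02) lay furthest under their class, and MYBL2 (0.46), CDC25B (0.37), CENPA (0.14) and NEK2 (0.10) above it. FOXM1, at 0.37, lay close to its class median of 0.39. Of the 137 other mitotic genes listed below, 93 were under their class median (67.9%), and of 54 DNA replication genes 33 (61.1%). These shares were not tested.

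**Figure D5:**
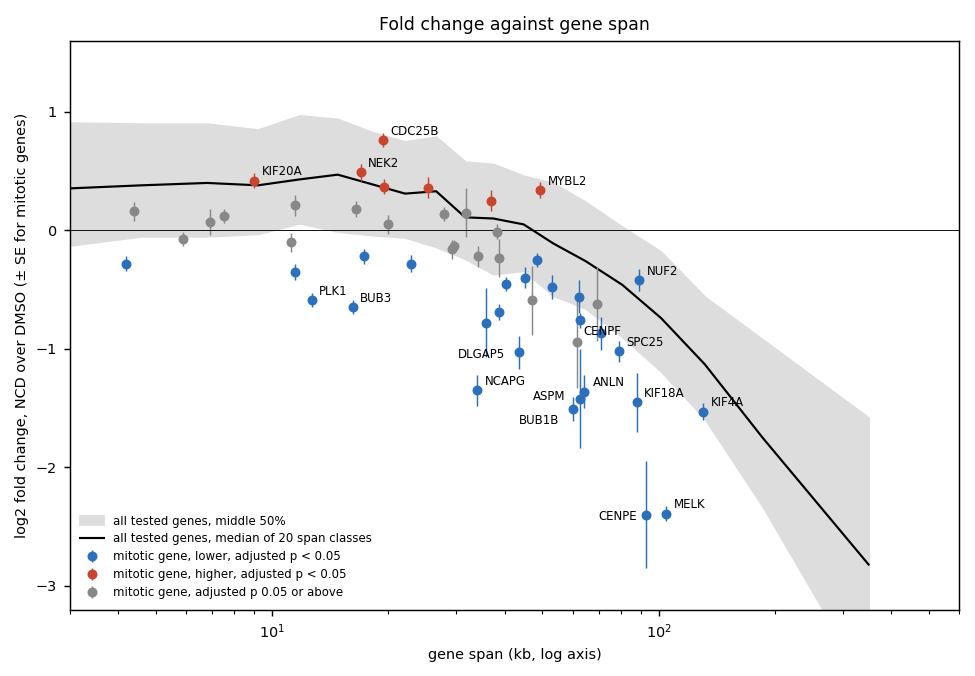
Log2 fold change (NCD over DMSO, y axis) against genomic span in kb (logarithmic x axis), with the 51 genes as points coloured by call, with SE bars, and with a line for the median and a grey band for the middle 50% of all tested genes in 20 span classes. The genes fall with span along the line, most lie under it (43 of 51), and those up to 20 kb have a median of 0.07 against -1.19 over 60 kb.

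Other mitotic genes, taken from lists drawn up by function, showed both directions within complexes. Of 137 such genes tested, 28 fell past the call rule (20.4%, beside 17.5% of all tested genes) and 6 rose (4.38%, beside 13.5%), with a median of -0.23. With library totals 23 fell and 10 rose past the rule, so falls still outnumbered rises. Among all tested genes 56.2% of the calls were higher under that scaling, against 43.6% with TMM. The shares of all tested genes given here were made with TMM. Of the 33 further centromere and kinetochore genes, 5 fell (15.2%, no more than the 17.5% of all tested genes) and 2 rose (6.06%). CENPP fell from 17.7 to 21.7 CPM to 1.57 to 2.28 (-3.36, SE 0.16, adjusted p = 2.09e-07, edgeR), while DSN1, of the MIS12 complex that carries the NDC80 complex, rose from 94.5 to 98.9 CPM to 256.7 to 259.3 (1.42, SE 0.05, adjusted p = 5.36e-08, edgeR). Of the 13 cohesin genes 5 fell past the rule (38.5%). They were led by STAG1, a subunit of the ring complex, from 62 to 82.6 CPM to 2.22 to 4.52 (-4.47, SE 0.21, adjusted p = 2.14e-07, edgeR). The loader MAU2 was the 1 cohesin gene that rose past the rule (1.04, SE 0.09). At any fold size 3 of the 13 rose (23.1%, beside 35.3% of all tested genes). The 5 cohesin genes that fell past the rule span 155.1 to 462.5 kb. None of 29 spindle and centrosome genes rose past the rule and 5 fell (17.2%, near the share of all tested genes), from CDK5RAP2, a centrosome organiser (15.9% of its DMSO level), to BORA, a cofactor of AURKA in activating PLK1 (49.8%).

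The smaller lists are given by their called members. Of 17 genes of the anaphase-promoting complex and its partners 3 fell (17.6%, near the share of all tested genes), including the subunits ANAPC1 (-1.73, SE 0.10) and CDC27 (-1.18, SE 0.11), and none rose. Of 6 further kinesins KIF20B (-1.82, SE 0.45) and KIF15 (-1.17, SE 0.24) fell (33.3%, beside 17.5% of all tested genes). Of 5 cytokinesis genes CIT, the citron kinase, fell (-2.17, SE 0.13, span 191.5 kb), which is 20%. Of 3 checkpoint genes MAD1L1 fell (-1.47, SE 0.12, span 417.5 kb), which is 33.3%. None rose past the rule in these lists, beside 13.5% of all tested genes. Among 5 genes of condensin II and chromosome structure NCAPG2 fell (-1.09, SE 0.06), which is 20%, and none rose past the rule. With library totals NCAPG2 (-0.89), CDC27 (-0.98), KIF15 (-0.97) and BORA (-0.81) missed the fold threshold. In the list with NCAPG2 the proliferation marker MKI67 was lower by less than 2-fold, at 367.4 to 496.4 CPM in DMSO and 277.4 to 369.9 in NCD (-0.45, SE 0.13, adjusted p = 0.0144, edgeR), a fall that was lost with library totals (-0.25, adjusted p = 0.158). TOP2A, the topoisomerase of mitotic chromosomes, was not called (-0.33, SE 0.23, adjusted p = 0.222, edgeR), but was called at -0.67 without NCD replicate 3 (adjusted p = 0.00296, edgeR), which was 1.75 times the other NCD pair. Of 11 genes of entry and exit, 3 fell past the rule (27.3%, beside 17.5% of all tested genes), down to the phosphatase CDC14A (35.5% of its DMSO level). PKMYT1, which phosphorylates CDK1, rose past the rule (1.11, SE 0.09), which is 9.09% of the list, beside 13.5%. WEE1, the other inhibitory kinase of CDK1, rose by less, from 50.9 to 55.1 CPM to 76.9 to 80.6 (0.57, SE 0.06, adjusted p = 4.28e-05, edgeR).

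Of 15 genes of the DREAM and E2F system, which represses and activates cell cycle promoters, 2 fell past the rule and 2 rose. These are 13.3% each, beside 17.5% and 13.5% of all tested genes. The called genes lay between RBL2 (p130, -1.41, SE 0.12) and LIN37 of the MuvB core (1.45, SE 0.14). Of 9 genes linked to a G2 arrest 7 were tested, GADD45G and RPRM being too low, and all 7 rose at any fold size and 4 past the call rule (57.1%), with a median of 1.05. These are short genes, with a median span of 3.3 kb, and among all tested genes of up to 20 kb 51% rose at any fold size and 21% past the rule. CDKN1A (p21), an inhibitor of cyclin-dependent kinases, measured 64.1, 58.7 and 60.8 CPM in DMSO and 131.9, 133.5 and 114.8 in NCD (1.05, SE 0.08, adjusted p = 2.55e-06, edgeR). BTG2, an antiproliferative gene, rose furthest, from 1.81 to 2.35 CPM to 9.18 to 12.4 (2.38, SE 0.17, adjusted p = 2.68e-06, edgeR). DNA replication genes, measured for comparison, had 3 of 54 lower and 3 higher past the rule (5.56% each, under the 17.5% and 13.5% of all tested genes). Their median was -0.02, and they ran from POLA1 (7.69% of its DMSO level) to CDT1 (283.7%). With library totals 8 of the 54 were higher past the rule. Under that scaling 56.2% of the calls among all tested genes were higher, against 43.6% with TMM.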

How the data were processed

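Total RNA of 6 samples of MDA-MB-231 cells was sequenced (Illumina NovaSeq), and the authors deposited 1 table of gene-level expected counts per library, made per the labels with HISAT2 and RSEM on GRCh38. Their versions, the annotation release, library layout and strandedness are not given in the sources used here. The 25 lines without a gene in each table were left out, and expected counts were rounded to whole numbers. Library totals were 18223594 to 21629653 counts. No molecular identifiers are named, so reads may include PCR copies. Genes kept by filterByExpr (15295) were fitted with edgeR 4.0.16 (R 4.3.3), with TMM scaling (factors 0.911 to 0.949 in DMSO, 1.059 to 1.092 in NCD), quasi-likelihood tests of NCD against DMSO and Benjamini-Hochberg adjustment over all tested genes. A call required an adjusted p under 0.05, and a log2 fold change beyond 1 unless any fold size is stated. SE is the log2 fold change over the root of F. The procedure was tested on simulated counts with 200 changed genes. Coordinates, spans and the longest protein-coding transcripts came from GENCODE 29, symbols from a separate list of gene names, and promoter letters from RefSeq GRCh38.p14.

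Replicates within a group differed by more than counting noise (chi-square per degree of freedom 2.05 to 15.4). Deviations of same-numbered libraries correlated at 0.216, -0.185 and 0.023, so the numbers were not used as pairs. All 51 genes are named by role. CPM of all 6 libraries are given at least for the lowest and highest of each role and every gene past the call rule. In the further lists, genes are named for being the lowest or highest past the rule, plus CDKN1A, WEE1, MKI67 and TOP2A. The genes and lists were chosen with earlier results of these data known. Alternatives were DESeq2 1.42.0, limma-voom (limma 3.58.1), library totals, relative log expression size factors, other filters, a replicate block, leaving out each library, and 2 added after seeing the data.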

Additional observations from a re-analysis of the deposited data

How the results depend on the processing

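Library totals in place of TMM moved the median of all genes by 0.20 and the higher share of calls past the fold threshold from 43.6% to 56.2%. Of the 51 genes 17 then fell and 16 rose at any fold size, with a median of -0.09 against 0.23 for all tested genes. Past the threshold 10 further mitotic genes then rose and 23 fell, and 8 DNA replication genes rose. Genes uncalled with TMM changed sign, CCNB1 to 0.10, INCENP to 0.04 and PRC1 to 0.07, still uncalled, and AURKB to 0.13 and NCAPH to 0.19, both called higher (adjusted p = 0.0489 and 0.0252, edgeR). With at least 10 counts in every library (13498 genes), the count of all tested genes higher past the threshold was 1376, against 2067. The long-transcript covariate gave 12 of the 51 higher at any fold size. Leaving out 1 library gave 9 to 15 genes lower past the threshold, 25 to 32 lower and 6 to 10 higher at any fold size, and -0.03 to 0.08 for CCNB2, -0.05 to 0.15 for PTTG1, -0.06 to 0.03 for NCAPH and -0.18 to 0.28 for HMMR, which was -0.08 without DMSO replicate 2 and NCD replicate 3. The cause of these shifts was not tested.

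With the replicate number as a block, 11 of the 51 genes fell past the threshold, CENPF being gained (-1.06, adjusted p = 0.0117, edgeR), and KIF14 fell at any fold size (-0.67). The 10 falls past the threshold all kept their call under DESeq2, limma-voom, relative log expression, both other filters and the block. Library totals lost DLGAP5 and SPC25, leaving out DMSO replicate 1 lost SPC25, and leaving out DMSO replicate 2, NCD replicate 1 or NCD replicate 2 lost DLGAP5. Depth set no limit for these genes, whose lowest count was 88, whereas 3 libraries a group leave calls of genes such as CENPF and SMC4 to single libraries.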
